A study of Mus musculus with 8 samples.

Results

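The 43 genes described here encode the enzymes, glucose and lactate carriers and regulators of glycolysis and of glycogen metabolism. They were chosen by function, with earlier results of these data known. Each was read from the brightest transcript cluster (a group of probes summarised as 1 value) paired with that gene alone. Of the 43, 39 had such a cluster and entered the comparison, among 14950 genes tested in all, and none of the 39 fell under the filter on dim genes. Gpi1, Pfkfb1 and Eno1 had no cluster of their own and Gapdh had only 11 clusters shared with other genes, so these 4 were not analysed here.

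Whole-heart RNA was measured in 4 HDAC3-deficient mice (KO, called MCH3-KO in the design text) and 4 wild-type mice (WT). HDAC3 is a class I histone deacetylase and the catalytic part of the NCoR and SMRT corepressor complexes. All 8 mice were C57BL/6 males aged 6 weeks that ate normal chow and carried no other stated treatment, and each heart gave 1 Affymetrix Mouse Gene 1.0 ST array. The labels give no promoter or cell type for the deletion and no littermate or cage relation between mice, and the replicates are labelled as biological. Values are log2 of the deposited intensity, so a difference of 1 is a doubling, and every difference is KO minus WT.

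Glycolysis splits glucose into pyruvate in the cytosol, and pyruvate is either oxidised in mitochondria or reduced to lactate. Glycogen is the branched store of glucose from which muscle feeds the same pathway through glucose 6-phosphate. The adult heart draws most of its energy from fatty acids and lactate and turns to glucose and glycogen when workload rises or oxygen falls.

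Hdac3 itself was 8.59, 8.59, 8.59 and 8.50 in the 4 KO hearts, against 10.14, 10.04, 10.20 and 10.04 in the 4 WT hearts. The KO level was 34.4% of the WT level, a difference of -1.54 ± 0.05 (SE; limma, adjusted p = 9.19e-08), so the targeted RNA followed the labels. Heart muscle markers were bright in both groups, with the summed intensity of 12 markers at 77778.8 to 79642.5 in KO and 77954.5 to 83937.8 in WT hearts. Macrophage markers moved with genotype: 19 of 19 were higher in KO hearts, with a median difference of 1.32, and their summed intensity was 10287.1 to 12756.4 in KO against 4366 to 5095.9 in WT hearts. Tyrobp, Lyz2 and Csf1r, the macrophage markers with the smallest p, were higher by 1.39, 1.41 and 1.31. Of 8 fibroblast markers 3 rose and 0 fell, and of 12 heart muscle markers 0 rose and 3 fell. Of 11 skeletal muscle markers 1 rose, Acta1 (1.27), a skeletal actin that heart also makes, and 2 fell, Mybpc2 (-0.40) and Ckm (-0.25). The summed intensity of 14 such markers, 3 of them dim, was 8537.6 to 9268.9 in KO and 6913.4 to 7589.9 in WT hearts. Acta1 (mean 12.04 in KO, 10.78 in WT) and Ckm (11.95 in KO, 12.20 in WT) were far brighter than the others. The sums therefore mainly follow these genes and do not show a shift of the skeletal muscle markers as a set. Of 2 erythroid markers tested Alas2 fell (-0.33), and of 10 immediate early genes Egr2 rose (0.45). The erythroid sum, which also holds 1 dim marker, was 203.9 to 226.7 in KO and 235.8 to 256.3 in WT hearts. No neutrophil, endothelial or fat marker passed the test (0 of 3, 0 of 8 and 0 of 4 by limma, and 0 at an unadjusted p under 0.05). The part of these markers in the results below was not tested, and in whole-heart RNA fewer cells of a type and less RNA per cell cannot be told apart.

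The glycolysis and glycogen genes did not shift as a block. Of the 39 tested, 11 were higher and 11 lower in KO hearts at an adjusted p under 0.05, and 17 did not pass. The members called made up 56.4%, beside 24.6% of all genes tested. Since the members were chosen with earlier results of these data known, these shares describe the list and do not test it. The higher ones include Hk1, read from a cluster whose name is doubtful, as given below. Where clusters with a RefSeq mRNA were preferred, 10 members were higher. By direction, 10.8% of all genes were called higher and 13.9% lower. The members are bright genes, with a median level of 9.57 beside 6.84 for all genes, and genes above that median level were called more often, at 34.2%. Among the 35 members above it, 19 were called, which is 54.3%. The median difference over the members was 0.01, beside -0.01 over all genes, and the median size of a difference was 0.20, beside 0.11 for all genes. Most differences were small: 3 members, Ppp1r3d, Ugp2 and Pfkfb2, passed 1.5-fold, as did 625 of the 14950 genes.

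The 4 KO and the 4 WT hearts did not overlap in 26 members, and 28.6% of all genes tested showed no overlap. The median spread within a group was 0.05 for the members in KO and 0.06 in WT hearts (SD, n = 4 each), beside 0.09 in each group over all genes. Heart 4 of the KO group was the lowest KO heart in 38.5% of the members and in 37.2% of all genes.

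**Figure D1:**
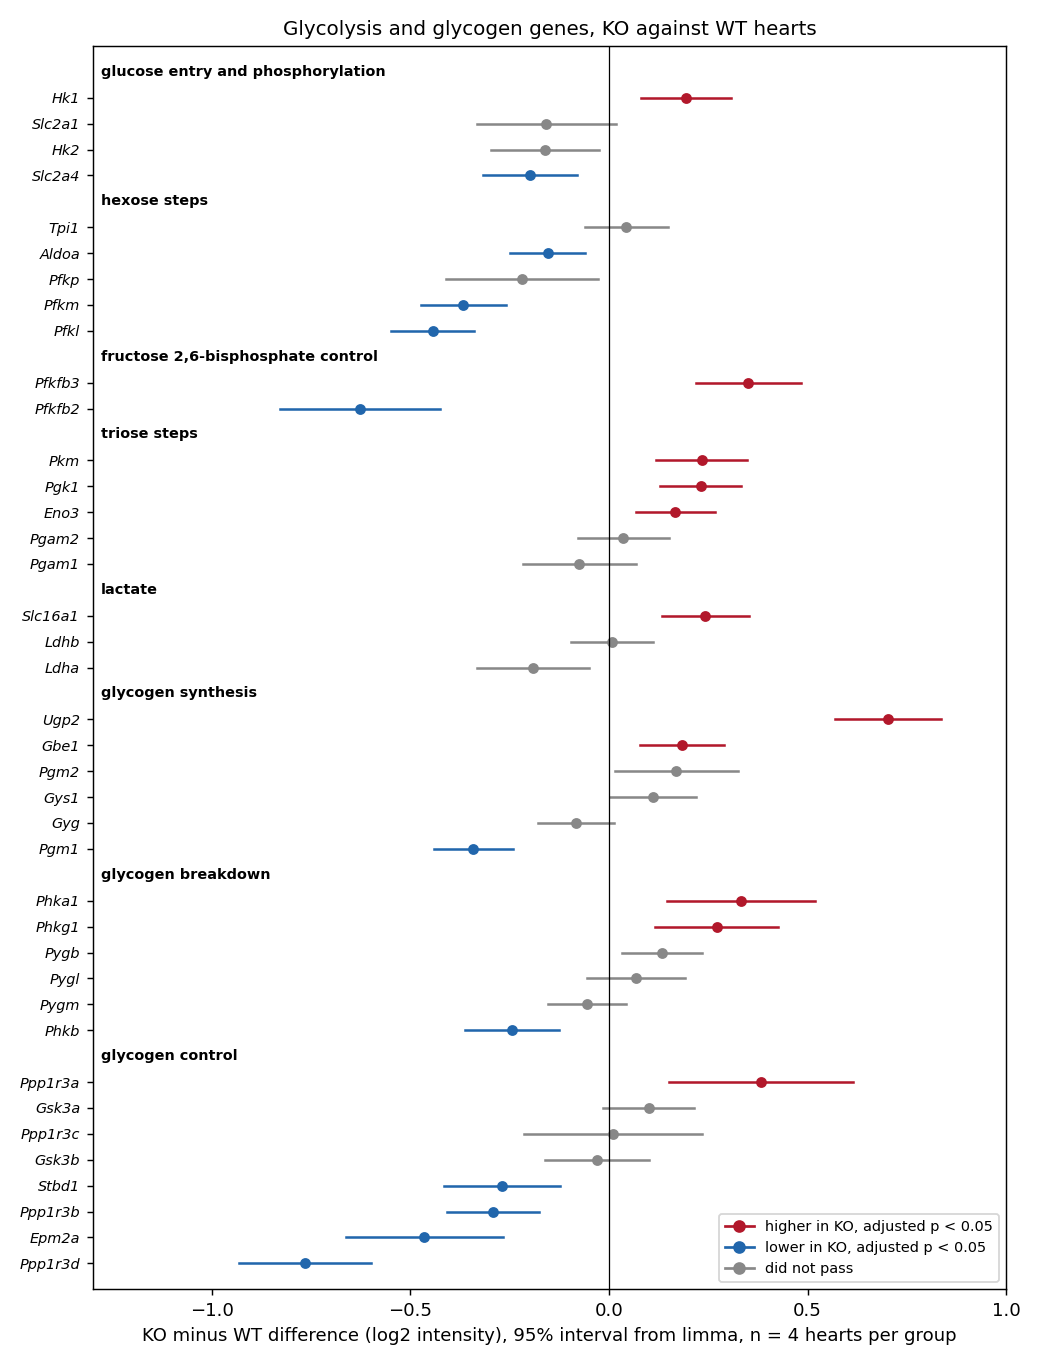
Difference between 4 KO and 4 WT hearts (log2, x axis) for each of the 39 genes, grouped by role down the page, with points for the estimate and bars for its 95% interval from limma. Called genes lie on both sides of 0, with Ugp2 at 0.70 and Ppp1r3d at -0.77 at the ends. Pfkm, Pfkl and Pfkp lie to the left of 0 and Pgk1, Eno3 and Pkm to the right.

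The 3 genes past 1.5-fold are shown with the 250 bases upstream of their first listed RefSeq transcription start (build GRCm38.p6), because they stand at the ends of the range in both directions and their windows can be read against those of the other members. The Ugp2 window is chr11:21371268-21371517, minus strand. That of Ppp1r3d is chr2:178414464-178414713, minus strand, and that of Pfkfb2 is chr1:130715822-130716071, minus strand. Capitals mark ACGTG on either strand, the core bound by hypoxia-inducible factors, and the longer palindrome CACGTG, the E-box read by MYC and MondoA-type factors, which holds that core on both strands.
Ugp2: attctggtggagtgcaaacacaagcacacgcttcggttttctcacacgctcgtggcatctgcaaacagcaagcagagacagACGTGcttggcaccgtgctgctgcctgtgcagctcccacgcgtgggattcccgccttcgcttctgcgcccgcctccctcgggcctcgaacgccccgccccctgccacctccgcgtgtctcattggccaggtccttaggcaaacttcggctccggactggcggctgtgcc
Ppp1r3d: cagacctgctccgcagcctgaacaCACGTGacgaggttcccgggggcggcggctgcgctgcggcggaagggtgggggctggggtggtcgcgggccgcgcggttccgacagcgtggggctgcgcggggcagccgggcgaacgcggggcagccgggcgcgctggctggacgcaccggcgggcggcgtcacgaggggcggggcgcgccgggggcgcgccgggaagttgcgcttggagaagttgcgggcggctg
Pfkfb2: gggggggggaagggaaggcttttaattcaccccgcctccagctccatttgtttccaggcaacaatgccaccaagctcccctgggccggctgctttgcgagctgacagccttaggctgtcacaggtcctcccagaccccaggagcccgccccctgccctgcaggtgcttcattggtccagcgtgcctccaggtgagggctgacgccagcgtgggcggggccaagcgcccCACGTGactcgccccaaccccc
In the windows shown, Ugp2 held the core once outside an E-box, while Ppp1r3d and Pfkfb2 each held an E-box. Ugp2 has 2 windows in the RefSeq table and Pfkfb2 has 3, and only 1 of each is shown. The E-box lay in 7 windows of 7 genes, so the other Pfkfb2 windows lack it. The Pfkfb2 window shown lies inside the listed span of the gene, which ends at 130729253. The windows of 37 tested members were found in the RefSeq table, 49 windows in all. ACGTG lay in 24 of the 49 (49%), beside 16.6% of 32851 windows of all genes, and CACGTG in 7 of the 49 (14.3%), beside 6.02%. AGGTCA, the nuclear receptor half-site, lay in 14.3% of member windows and 14% of all windows. The members' windows were also richer in G and C, with a median of 60.4% beside 52.4% for all windows. Called genes of both directions were among those with the E-box, Slc16a1 and Pfkfb3 among the higher ones and Pfkm, Pfkfb2 and Ppp1r3d among the lower ones. These counts describe letters in a window and not binding.

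Genes of glucose entry and its first phosphorylation differed by a median size of 0.18, beside 0.20 over all members. Slc2a4, the insulin-responsive glucose transporter GLUT4, was 10.44, 10.48, 10.43 and 10.31 in KO hearts, against 10.57, 10.64, 10.66 and 10.58 in WT hearts. Every KO heart was below every WT heart, and GLUT4 RNA fell to 87.1% of WT (-0.20 ± 0.05, SE, adjusted p = 0.0196). Without WT heart 3 its adjusted p was 0.0552. Slc2a1, the basal transporter GLUT1, was 8.10, 8.23, 7.93 and 7.94 in KO and 8.11, 8.18, 8.35 and 8.19 in WT hearts, and the groups overlapped (-0.16 ± 0.08, adjusted p = 0.18). Hk2, the insulin-regulated hexokinase of muscle, was 9.48, 9.61, 9.35 and 9.51 in KO and 9.71, 9.61, 9.67 and 9.61 in WT hearts. Its difference of -0.16 ± 0.06 did not pass (adjusted p = 0.0834), although it passed in 3 alternatives, with a range of 0.0441 to 0.193 over all of them and a value of 0.0474 without KO heart 2.

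Hk1, the constitutive mitochondrial hexokinase, was read by 2 clusters that gave different calls. The brightest had 11.35, 11.41, 11.38 and 11.46 in KO hearts, against 11.14, 11.27, 11.24 and 11.17 in WT hearts, higher by 0.20 ± 0.05 (adjusted p = 0.018). That cluster's name is doubtful. It is paired with Hk1 through a single accession that also names 15 clusters shared with Rpl17, a ribosomal protein gene, and 14 of those 15 were higher in KO hearts (median 0.17). None of its 20 neighbours in cluster order lies on the chromosome of Hk1. The cluster paired with Hk1 through a RefSeq mRNA had 9.25, 9.25, 9.20 and 9.10 in KO and 9.14, 9.07, 9.02 and 9.03 in WT hearts, where the groups overlapped and the difference of 0.13 ± 0.05 did not pass (adjusted p = 0.0965). The call of the brightest cluster was also lost without WT heart 1 (0.0535) or WT heart 4 (0.0506).

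Phosphofructokinase, which commits hexose to glycolysis, was lower in KO hearts in its muscle and liver-type subunits, while the platelet-type subunit did not pass. Pfkm, the muscle subunit, was 11.34, 11.27, 11.29 and 11.22 in KO hearts, against 11.69, 11.67, 11.63 and 11.60 in WT hearts. The groups stood well apart, and KO hearts held 77.6% of the WT level (-0.37 ± 0.05, adjusted p = 0.000375). Pfkl, the liver-type subunit, was 8.16, 8.14, 8.09 and 8.10 in KO and 8.58, 8.53, 8.63 and 8.54 in WT hearts, so again no heart overlapped. It fell to 73.5% of WT (-0.44 ± 0.05, adjusted p = 9.46e-05). Pfkp, the platelet-type subunit, was 8.07, 8.06, 7.89 and 7.70 in KO and 8.16, 8.26, 8.07 and 8.09 in WT hearts, and its difference of -0.22 ± 0.09 did not pass (adjusted p = 0.0942, and 0.0469 with the replicate number as a block). Aldoa, which cleaves fructose 1,6-bisphosphate, was 12.50, 12.53, 12.51 and 12.50 in KO hearts, against 12.67, 12.70, 12.65 and 12.64 in WT hearts. Its fall was small but beyond the spread within each group (-0.15 ± 0.04, adjusted p = 0.0239). The Aldoa call was lost without KO heart 1 (0.0711), KO heart 2 (0.0525) or WT heart 1 (0.0561) and with the replicate number as a block (0.0605). Tpi1, which interconverts the triose phosphates, differed by 0.04 ± 0.05 (adjusted p = 0.57).

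The bifunctional enzymes that set fructose 2,6-bisphosphate, the strongest activator of phosphofructokinase, moved in opposite directions. Pfkfb2, the heart form that insulin and adrenaline signals activate by phosphorylation, was 8.85, 8.96, 8.74 and 8.54 in KO hearts, against 9.31, 9.32, 9.53 and 9.43 in WT hearts. It fell to 64.7% of WT, with no overlap (-0.63 ± 0.09, adjusted p = 0.000662). Pfkfb3, the inducible form whose kinase activity far exceeds its phosphatase activity, was 6.96, 7.04, 7.02 and 6.98 in KO hearts, against 6.71, 6.68, 6.71 and 6.49 in WT hearts. It rose 1.28-fold, with no overlap (0.35 ± 0.06, adjusted p = 0.00183).

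**Figure D2:**
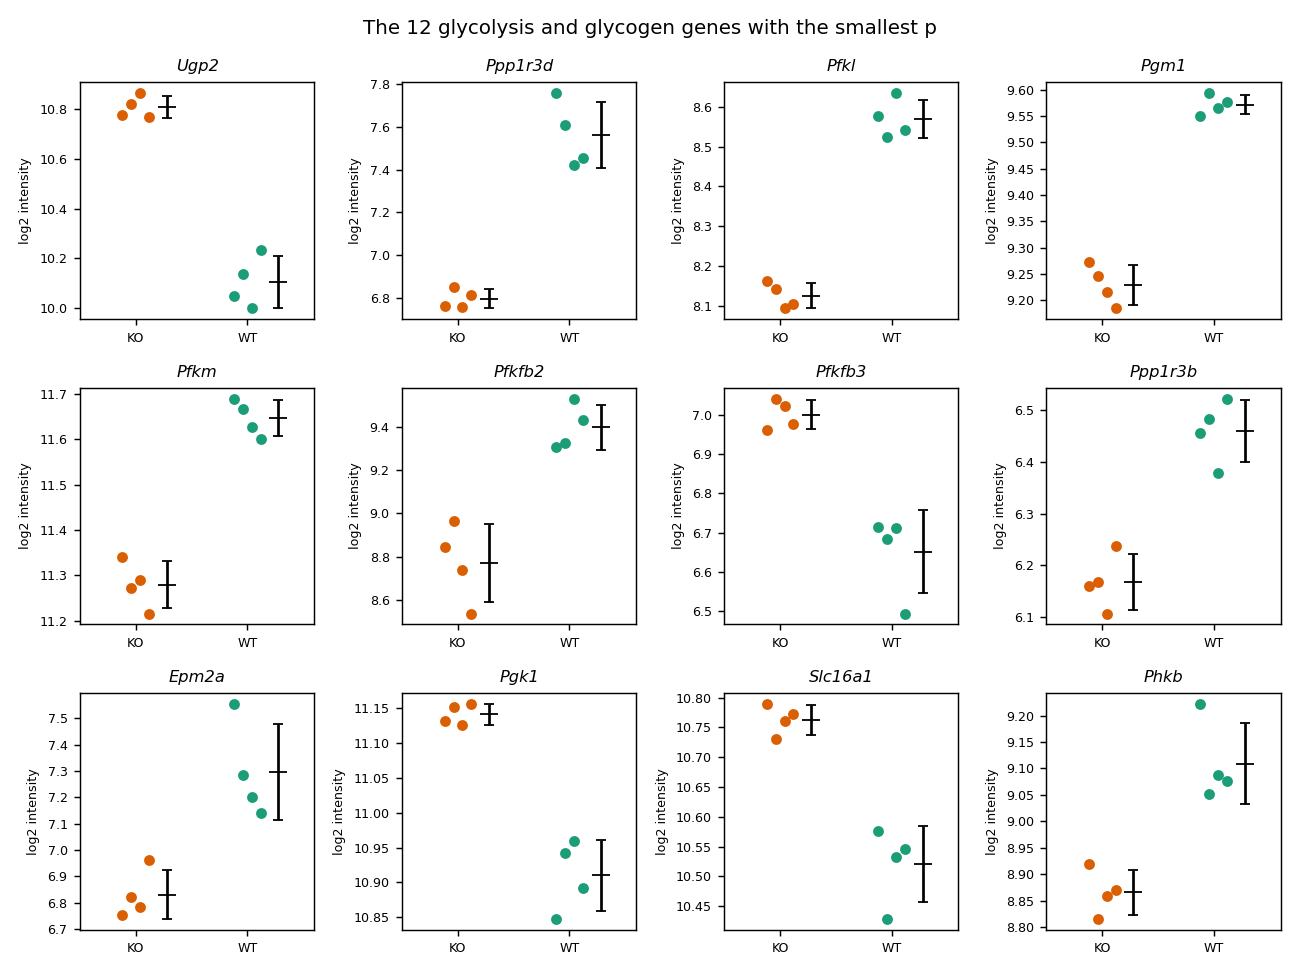
Log2 intensity in each heart (y axis, range set per panel) of the 12 members with the smallest p, 4 KO hearts left and 4 WT hearts right in each panel, with the mean and SD of each group. In the panels for Ppp1r3d, Pfkfb2 and Pfkl every KO heart lies below every WT heart, and in that for Ugp2 every KO heart lies above.

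Of the 5 tested genes that carry triose phosphate to pyruvate, 3 rose and 0 fell. Pgk1, which makes the first ATP of the pathway, was 11.13, 11.15, 11.13 and 11.16 in KO hearts, against 10.85, 10.94, 10.96 and 10.89 in WT hearts (0.23 ± 0.05, adjusted p = 0.00453). Pkm, pyruvate kinase, which makes the last, was 11.12, 11.18, 11.11 and 11.09 in KO and 10.97, 10.93, 10.84 and 10.82 in WT hearts (0.23 ± 0.05, adjusted p = 0.00787). In both genes every KO heart was above every WT heart. A second Pkm cluster differed by 0.21, also without overlap, but its name is doubtful. It is paired with Pkm through 0 RefSeq mRNAs. In cluster order it lies between those of Mlxipl and Prkag2 on chromosome 5, whereas Pkm is on chromosome 9. The clusters do not separate the PKM1 and PKM2 splice forms. Eno3, the muscle enolase, was 12.58, 12.54, 12.61 and 12.56 in KO hearts, against 12.42, 12.44, 12.36 and 12.39 in WT hearts (0.17 ± 0.04, adjusted p = 0.0208). Its rise held in sign but lost its call without KO heart 1 (0.0612), KO heart 3 (0.0559), WT heart 3 (0.0595) or WT heart 4 (0.0513), and with equal array medians (0.0604) or the replicate block (0.0589). Pgam2, the muscle phosphoglycerate mutase, differed by 0.04 ± 0.05 and Pgam1, the form of most tissues, by -0.07 ± 0.06, and neither passed (adjusted p = 0.678 and 0.459). The Pgam1 cluster has 0 of 20 neighbours on the chromosome of Pgam1, so its name is doubtful too.

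Among the lactate genes Slc16a1, the proton-coupled lactate and pyruvate carrier MCT1, was 10.79, 10.73, 10.76 and 10.77 in KO hearts, against 10.58, 10.43, 10.53 and 10.55 in WT hearts. Every KO heart was above every WT heart (0.24 ± 0.05, adjusted p = 0.00486). Ldha, the lactate dehydrogenase subunit common in skeletal muscle, was 11.79, 11.77, 11.68 and 11.52 in KO and 11.87, 11.88, 11.86 and 11.90 in WT hearts. The groups did not overlap, yet the difference of -0.19 ± 0.06 missed the threshold (adjusted p = 0.0517, and 0.0143 to 0.106 over the alternatives, 4 of which passed, with 0.0481 without KO heart 1). Ldhb, the heart subunit, was level, at 11.53, 11.51, 11.48 and 11.50 in KO and 11.47, 11.56, 11.45 and 11.53 in WT hearts (0.01 ± 0.05, adjusted p = 0.942).

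Glycogen synthesis held the largest rise among the members tested. Ugp2, which makes UDP-glucose, the sugar donor for glycogen, was 10.78, 10.82, 10.87 and 10.77 in KO hearts, against 10.05, 10.14, 10.0004 and 10.23 in WT hearts. All KO hearts were above all WT hearts, and the rise was 1.63-fold (0.70 ± 0.06, adjusted p = 2.24e-05). Gbe1, the branching enzyme, was 9.11, 9.23, 9.13 and 9.13 in KO and 8.94, 8.98, 8.98 and 8.97 in WT hearts (0.18 ± 0.05, adjusted p = 0.0165, and 0.0541 without KO heart 2). Pgm1, phosphoglucomutase, links glucose 6-phosphate to the glucose 1-phosphate that Ugp2 uses, and here the symbol is that of the mouse gene that corresponds to human PGM1. It ran the other way, at 9.27, 9.25, 9.22 and 9.19 in KO hearts, against 9.55, 9.59, 9.57 and 9.58 in WT hearts, and fell to 78.9% of WT (-0.34 ± 0.04, adjusted p = 0.000342). Pgm2, the counterpart of human PGM2, had a difference of 0.17 ± 0.07 with overlap of the groups (adjusted p = 0.108, and 0.0389 without WT heart 2).

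The enzymes that start and extend the chain did not pass the test. Gys1, muscle glycogen synthase, was 9.73, 9.71, 9.59 and 9.67 in KO and 9.58, 9.58, 9.55 and 9.54 in WT hearts, without overlap (0.11 ± 0.05, adjusted p = 0.128, and 0.0382 with array weights). Gyg, glycogenin, which primes the granule, was 10.52, 10.54, 10.51 and 10.56 in KO and 10.61, 10.63, 10.60 and 10.62 in WT hearts, also without overlap (-0.08 ± 0.04, adjusted p = 0.195).

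Glycogen phosphorylase, which releases glucose 1-phosphate, did not change beyond the threshold in any of its 3 forms, whereas the 3 subunits of its activating kinase among the members did. Pygm, the muscle phosphorylase, differed by -0.06 ± 0.04 (adjusted p = 0.423), and Pygl, the liver form and the dimmest of the 39 genes at a mean level of 5.14, by 0.07 ± 0.06 (adjusted p = 0.441). Pygb, the brain form, which heart also makes, was 11.82, 11.83, 11.78 and 11.78 in KO and 11.67, 11.62, 11.70 and 11.69 in WT hearts. It did not overlap between groups and narrowly missed the threshold (0.13, adjusted p = 0.0545, and 0.00597 to 0.138 over the alternatives).

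Phka1, the muscle regulatory alpha subunit of phosphorylase kinase, was 9.07, 9.05, 9.07 and 8.91 in KO hearts, against 8.57, 8.53, 8.90 and 8.77 in WT hearts (0.33 ± 0.08, adjusted p = 0.015). Phkg1, the muscle catalytic subunit, was 7.79, 7.85, 7.65 and 7.73 in KO and 7.39, 7.42, 7.65 and 7.48 in WT hearts (0.27 ± 0.07, adjusted p = 0.0164). It was the only called gene of the 39 whose groups overlapped, and its call was lost without KO heart 1 (0.0503) or KO heart 2 (0.052) and with the replicate block (0.0505). Phkb, the beta subunit, fell, at 8.92, 8.82, 8.86 and 8.87 in KO hearts, against 9.22, 9.05, 9.09 and 9.08 in WT hearts (-0.24 ± 0.05, adjusted p = 0.0075). Of the liver-type subunits, read from a second list of related genes, Phka2 (alpha) fell by 0.25 without overlap (adjusted p = 0.00807), while Phkg2 (catalytic) differed by -0.07 with overlap and did not pass (adjusted p = 0.494).

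The genes that tie phosphatase and other regulators to the glycogen particle held the largest fall among the members tested. Ppp1r3d, a subunit that targets protein phosphatase 1 to glycogen, was 6.76, 6.85, 6.76 and 6.81 in KO hearts, against 7.76, 7.61, 7.42 and 7.45 in WT hearts. Its level in KO hearts was 1.70-fold lower than in WT hearts, with no overlap (-0.77 ± 0.07, adjusted p = 5.47e-05). Ppp1r3b, another such subunit, known from liver and muscle, was 6.16, 6.17, 6.11 and 6.24 in KO and 6.45, 6.48, 6.38 and 6.52 in WT hearts, again lower without overlap (-0.29 ± 0.05, adjusted p = 0.00229). Ppp1r3a, the striated muscle subunit, rose, at 10.41, 10.43, 10.31 and 10.27 in KO hearts, against 9.97, 9.64, 10.14 and 10.14 in WT hearts. This rise of 0.38 ± 0.10 passed over all 8 hearts (adjusted p = 0.022) but not without KO heart 1 (0.0614) or KO heart 2 (0.0613). Ppp1r3c, also known as PTG, was 9.15, 9.08, 9.06 and 8.84 in KO and 8.91, 8.81, 9.24 and 9.13 in WT hearts, with overlap (0.01 ± 0.10, adjusted p = 0.963).

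Epm2a, laforin, a phosphatase that removes phosphate from glycogen and is mutated in Lafora disease in humans, was 6.75, 6.82, 6.78 and 6.96 in KO hearts, against 7.55, 7.28, 7.20 and 7.14 in WT hearts. It fell to 72.4% of WT (-0.47 ± 0.09, adjusted p = 0.00351). Stbd1, which binds glycogen and takes part in its delivery to lysosomes, was 5.03, 5.002, 5.004 and 5.24 in KO and 5.37, 5.29, 5.42 and 5.27 in WT hearts, a difference of -0.27 ± 0.07 without overlap (adjusted p = 0.0128). Nhlrc1, malin, the ubiquitin ligase partner of laforin, read from the second gene list, differed by -0.04 with overlap and did not pass (adjusted p = 0.623). The glycogen synthase kinases did not pass. Gsk3a differed by 0.10 ± 0.05 (adjusted p = 0.193) and did not overlap, and Gsk3b differed by -0.03 ± 0.06 (adjusted p = 0.764).

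**Figure D3:**
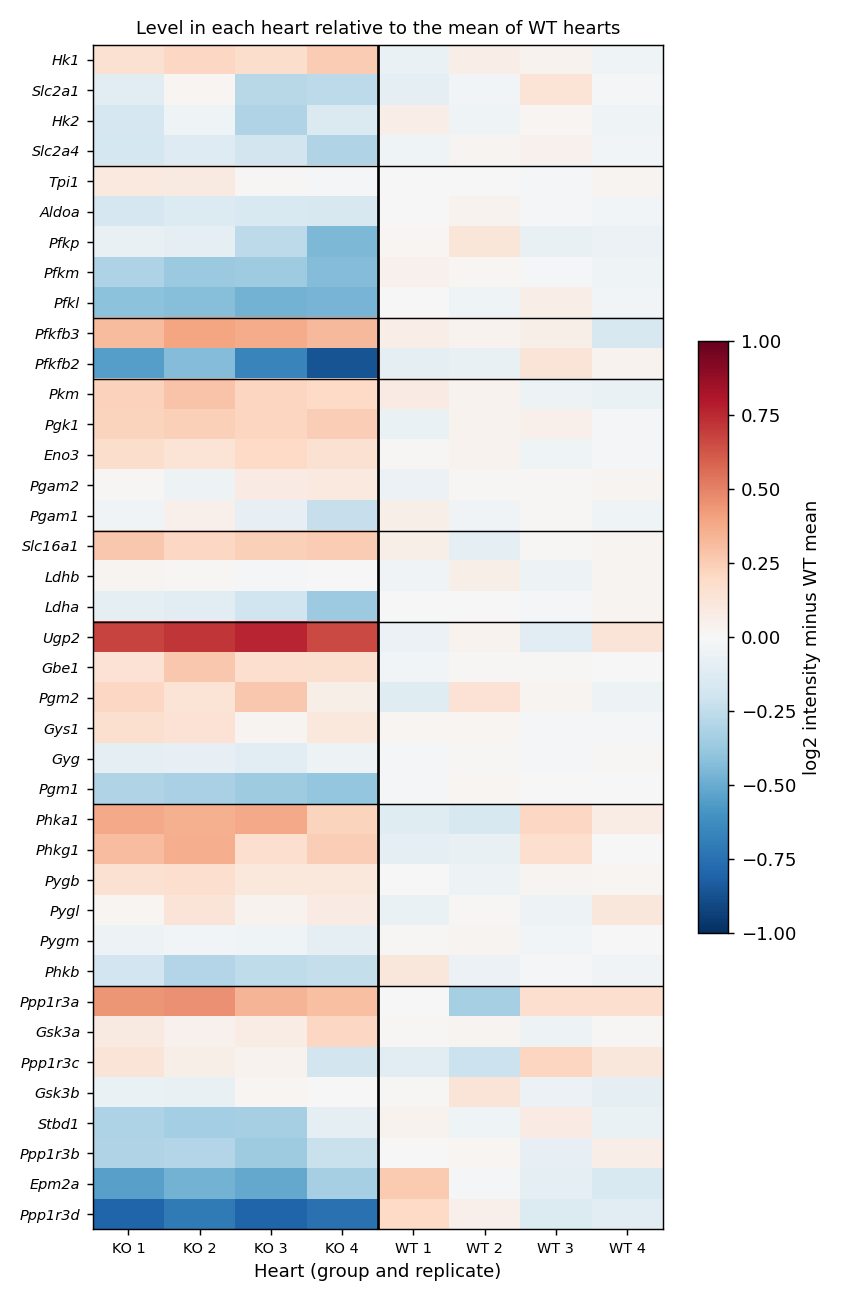
Level of each of the 39 genes (rows, grouped by role) in each heart (columns, 4 KO hearts left, 4 WT hearts right), as log2 difference from the WT mean on a colour scale limited to -1 and 1. The KO columns share the same pattern of higher rows such as Ugp2 and lower rows such as Ppp1r3d, Pfkfb2 and Epm2a.

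By role, calls ran in both directions in 5 of the 8 roles and in one direction in the other 3. Of 4 tested genes of glucose entry 1 rose and 1 fell, and of 5 from phosphofructokinase to triose phosphate isomerase 0 rose and 3 fell. The pair that sets fructose 2,6-bisphosphate gave 1 of each, the 5 triose steps 3 higher and 0 lower, and the 3 lactate genes 1 higher and 0 lower. Glycogen synthesis had 2 higher and 1 lower of 6, breakdown 2 and 1 of 6, and control 1 and 4 of 8. Over the 19 glycolysis genes 6 rose and 5 fell, and over the 20 glycogen genes 5 rose and 6 fell. The rise counted under glucose entry, and so the calls in both directions there, rests on the Hk1 cluster with the doubtful name. The RefSeq-named Hk1 cluster did not pass (limma, adjusted p = 0.0965). The difference in direction between the phosphofructokinase and triose steps was not tested, since it was read from these values.

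Tissue isoforms that catalyse one step were also set against each other within each heart. The logarithm of their ratio was compared with a two-sided exact permutation test over the 8 hearts, whose smallest possible p is 0.0286, with Benjamini-Hochberg adjustment over the 9 pairs that could be run. None passed after adjustment, and 4 reached the smallest p (adjusted 0.0644). With this adjustment a pair could pass only if at least 6 of the 9 reached that p together. Pfkfb3 minus Pfkfb2 was -1.77 ± 0.17 in KO and -2.75 ± 0.16 in WT hearts (SD, n = 4 each), a difference of 0.98 (exact p = 0.0286). Pygb minus Pygm was -0.25 ± 0.03 in KO and -0.44 ± 0.06 in WT hearts, a difference of 0.19 (exact p = 0.0286). Ldha minus Ldhb was 0.18 ± 0.12 in KO and 0.38 ± 0.04 in WT hearts, a difference of -0.20 (exact p = 0.0286). Hk1 minus Hk2 was 1.91 ± 0.10 in KO and 1.56 ± 0.10 in WT hearts, a difference of 0.36 (exact p = 0.0286), and 0.30 with the RefSeq-named Hk1 cluster. In each of these 4 pairs the KO and WT hearts did not overlap. In the remaining 5 the groups overlapped: Slc2a1 against Slc2a4, Pfkl and Pfkp each against Pfkm, Pgam1 against Pgam2, and Pygl against Pygm, with exact p from 0.0857 to 0.5429. The members of a pair have different probes, so a ratio shows unequal change between hearts and not which isoform is more abundant.

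**Figure D4:**
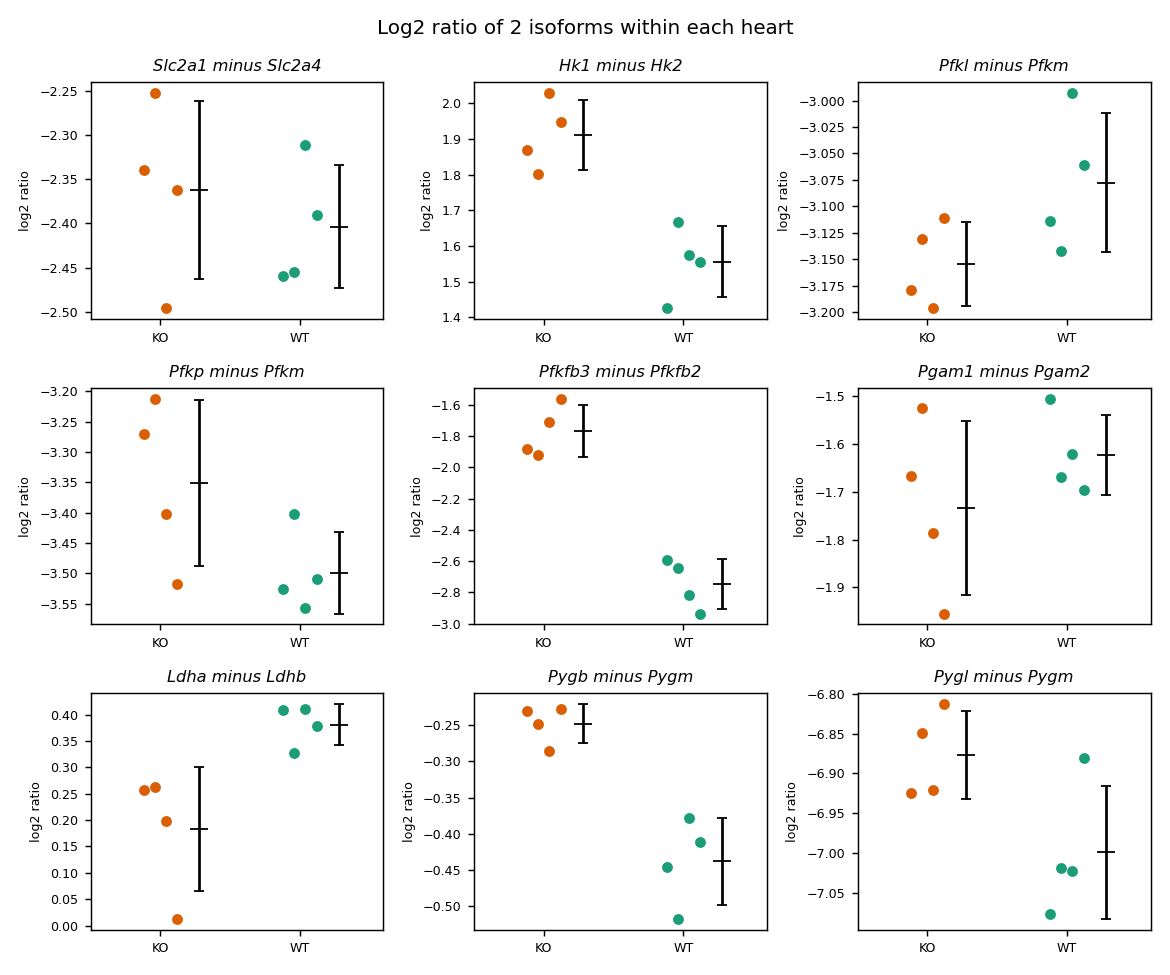
Log2 ratio of 2 isoforms in each heart (y axis, range set per panel), 4 KO hearts left and 4 WT hearts right in each panel, with mean and SD. The KO points for Pfkfb3 over Pfkfb2 lie above all WT points, with group means of -1.77 in KO and -2.75 in WT hearts, and those for Ldha over Ldhb lie below.

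Further genes of glycolysis, sugar transport and glycogen handling were read from the second list, made by function with earlier results of these data known. Of its 39 tested genes 3 were higher and 9 lower in KO hearts, together 30.8%, beside 24.6% of all genes. Several of its genes were dimmer than any member, such as Gapdhs at 4.54 and Aldoc at 4.83 (mean level). Genes above the median level were called more often (34.2%), so the share of this list and that of the members are not like for like. Slc16a7, the lactate and pyruvate carrier MCT2, was 6.11, 6.30, 6.24 and 6.20 in KO hearts, against 6.86, 6.96, 6.79 and 6.90 in WT hearts (-0.66, adjusted p = 3.03e-05), opposite in direction to Slc16a1. Gaa, the lysosomal alpha-glucosidase that digests glycogen and is deficient in Pompe disease in humans, was 9.02, 8.98, 8.86 and 8.96 in KO and 9.40, 9.43, 9.37 and 9.38 in WT hearts (-0.44, adjusted p = 0.00015). Both stood without overlap between groups. Slc37a4, the glucose 6-phosphate transporter, fell by 0.45 (adjusted p = 0.000202), and Slc2a12, the transporter GLUT12, fell by 0.50 (adjusted p = 0.000218). The others named by smallest p were also lower: Pgm5, a phosphoglucomutase relative of muscle adhesion sites, by -0.33, Tigar, a fructose bisphosphatase induced by p53, by -0.35, and the galactose enzymes Galm by -0.47 and Galt by -0.22. The 3 higher genes were Hk3 (0.22), Bsg (0.18), which encodes the chaperone of MCT1, and Ppp1r3g (0.27), another phosphatase targeting subunit, whose groups overlapped. Hk3, which was dim at a mean level of 5.15, is known as the hexokinase of white blood cells. The macrophage marker sums given above were higher in the same KO hearts, and a link between these rises was not tested.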

How the data were processed

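Whole-heart total RNA from 4 KO and 4 WT mice was extracted with Trizol and hybridised to 1 array each. The authors deposited linear intensities for 27541 transcript clusters. Partek and RMA were used, per the submitters' processing notes. RMA values are usually logarithmic; how these became linear, the probe annotation and the genome build are not given in the sources available for this work. The deposited intensities were taken to log2 with no further scaling. Array medians were 54.1 to 56.5, and correlations between arrays were 0.9948 to 0.9975 within KO, 0.9933 to 0.9962 within WT and 0.9885 to 0.992 between them. Depth has no meaning for arrays, and the number of hearts limits precision.

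Platform annotation paired 21631 clusters with 1 symbol, 1317 with several and 4593 with none. Entrez IDs of 21544 were found in the RefSeq table of GRCm38.p6, which updated 0 symbols. A gene was its brightest cluster, and 4983 genes with a mean log2 level below the 25th percentile (4.50) were left out. Groups were compared with limma 3.58.1 in R 4.3.3 (lmFit, eBayes, two-sided, no covariate, 6 residual degrees of freedom), with Benjamini-Hochberg adjustment over 14950 genes and a threshold of 0.05; errors of differences are limma's SE. The test was run on simulated data with changes of 1.5-fold or more, which does not bear on the smaller differences called here. Isoform ratios used exact permutation over hearts.

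Every member was named, and from other lists the called genes, at most 8 by smallest p (markers at most 3); Hk3, Bsg, Ppp1r3g, Phka2, Phkg2, Nhlrc1 and Khk were added after their values were seen. The members and lists were chosen with earlier results of these data known. Alternatives were other scalings, filters, variance models, weights, cluster choices, a replicate block, a threshold of 0.01 and each heart left out. The preference for a cluster with a RefSeq mRNA was chosen after seeing the data. Scanner files were not analysed here, so detection calls and scan batches were not examined.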

Additional observations from a re-analysis of the deposited data

Results flagged for a closer look

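In 58 genes, the 39 members, Hdac3 and the called genes of the other lists (at most 8 of each by smallest p), each group of 4 hearts was checked for a heart far from the other 3, by the gap to its nearest neighbour over the group's range (Dixon's 95% critical value). Of 116 checks 5 met this, and chance gives about 1 in 20. KO heart 4 was the heart in 3 of the 5. It had Phka1 at 8.91, with the other KO hearts at 9.05 to 9.07, and Stbd1 at 5.24, with the others at 5.002 to 5.03. It had Hdac3 at 8.50, with the other KO hearts all at 8.59. Phka1 and Stbd1 were each closer to WT levels in that heart, whereas its Hdac3 was the lowest of all 8. In WT hearts, Pfkfb3 was 6.49 in heart 4, with the others at 6.68 to 6.71, and Mlxipl, which encodes the glucose-responsive factor ChREBP, was 8.20 in heart 2, with the others at 7.90 to 7.92. Phka1, Stbd1 and Pfkfb3 stayed past the threshold when the heart in question was left out (adjusted p = 0.016, 0.00229 and 0.00316).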

How the results depend on the processing

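Of the 22 called members, 15 stayed past the threshold in each of the 17 alternatives in which they were tested and 0 changed sign. The other 7 (Slc2a4, Hk1, Aldoa, Eno3, Gbe1, Phkg1 and Ppp1r3a) were lost in at least 1, with the values given in the report. Of 17 uncalled members 6 passed in at least 1 alternative and 3 changed sign. Ldhb, at 0.0068, became -0.0029 after quantile normalisation and -0.0158 with equal array medians, and ranged over -0.0103 to 0.0257 with 1 heart left out. Ppp1r3c became -0.0129 with equal medians and ranged over -0.0621 to 0.082, and Gsk3b ranged over -0.0602 to 0.0134, with 1 heart left out. At an adjusted p under 0.01, a setting apart from those 17, 5 members were higher and 8 lower, as were 961 and 1249 of all genes, and 2 other sugar genes were higher. That last count, 8 in the report's setting, was 15 with array weights and 3 to 9 with 1 heart left out (3 without KO heart 1, 4 without KO heart 2, 5 without KO heart 3). The cause of these shifts was not tested. Equal array medians gave 1356 higher and 2365 lower over all genes, against 1612 and 2071. Same-numbered hearts did not deviate together (correlations -0.04, 0.03, -0.04 and 0.08). Differently numbered hearts ranged from -0.23 to 0.23, so these values cannot show whether the numbers pair the mice. With the replicate block 9 members were higher and 11 lower, and 1466 and 1916 of all genes. None of the 9 isoform ratios passed under any alternative run, which says little of their stability, since at least 6 of the 9 would have to reach the smallest possible p together. Signal near background limits the dimmest genes, such as Pygl and, among the called ones, Stbd1 (mean level 5.20).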

Other observations

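Neighbouring sugar pathways were read in the same fit. None of 9 tested genes of the pentose phosphate pathway passed (0 by limma, 2 at an unadjusted p under 0.05). Of 10 further genes, of the hexosamine pathway and Khk, the fructose kinase, 1 rose and 2 fell. The polyol enzymes Akr1b3 and Sord had no cluster of their own and were not analysed here. Uap1, which makes UDP-N-acetylglucosamine, was higher by 0.23 (adjusted p = 0.0127). Oga, the enzyme that removes O-GlcNAc from proteins, was lower by -0.25 (adjusted p = 0.00336), and Gnpda2, a glucosamine 6-phosphate deaminase, by -0.18 (adjusted p = 0.0302).

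Of 28 tested genes on a broad list of regulators of glucose metabolism 4 rose and 3 fell, 25% beside 24.6% of all genes. That list also holds general factors such as Gtf2i. The paired glucose sensors moved in opposite directions. Mlxipl, which encodes ChREBP, was 7.39, 7.35, 7.35 and 7.40 in KO hearts, against 7.91, 8.20, 7.92 and 7.90 in WT hearts (-0.61, adjusted p = 0.000151). Mlxip, which encodes MondoA, its relative of skeletal muscle, was 9.29, 9.28, 9.25 and 9.23 in KO and 8.98, 8.96, 8.99 and 8.95 in WT hearts (0.29, adjusted p = 0.000793). In neither gene did a KO heart overlap a WT heart. Prkab1, a beta subunit of the energy sensor AMPK, was lower by -0.52 (adjusted p = 0.0011) and Gtf2i, a general transcription factor, by -0.39 (adjusted p = 0.000213). Mef2d, a muscle transcription factor, was higher by 0.24 (adjusted p = 0.00454), and Insr, the insulin receptor, by 0.17 (adjusted p = 0.0331). Myc was 6.75, 6.88, 6.51 and 6.32 in KO and 5.48, 6.06, 6.07 and 6.35 in WT hearts, higher by 0.63 with the groups overlapping (SE 0.17, adjusted p = 0.0246). Over all 85 further sugar genes and regulators tested, 8 were higher and 14 lower, together 25.9%.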
